A study of Homo sapiens with 6 samples.

Results

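The genes examined here encode the proteasome, its activators and its assembly chaperones. They were chosen by symbol: a gene was a member if its name began with PSMA to PSMG and a number, with no hyphen and no pseudogene ending. Of 52 names that began this way, 7 were left out as antisense or retrocopy genes, and PSMC3IP (16 counts over the 6 libraries) was set apart because it matches by spelling but encodes no proteasome subunit. The remaining 44 genes, of 10072 genes in the count table, held 161 of its 21472 transcript models. They comprised 17 genes of the core (PSMA, PSMB), 22 of the regulatory class (PSMC, PSMD, PSME) and 5 others (PSMF1, PSMG1 to PSMG4). PSMA8, PSMB11, PSMD3 and PSME4 were not analysed here.

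The libraries came from Calu-6, an established human non-small cell lung cancer line, in which polyadenylated RNA was read as long PCR-amplified cDNA. Cells received 10 nM siRNA for 48 h, either a non-silencing sequence (siControl, 3 libraries) or one aimed at the joined exons 1 and 5 of TERT Delta 2-4, a splice variant of the telomerase gene (siDelta2-4, 3 libraries). Per the study's methods, the sequenced line stably carried a Flag-V5 vector, either empty or with Delta 2-4. All 6 columns used here are named "Empty", so these were the empty-vector cells, and the labels call their genotype WT. The comparison asks how a reduction of this variant changes the transcriptome. TERT has no row in the table, so the knockdown itself could not be checked from the counts. By droplet PCR in this cell line, the study reports that its siRNA lowered the variant only in part. It names the remaining transcript as a limitation.

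The proteasome degrades proteins that carry ubiquitin chains. Its core is a barrel of alpha rings around beta rings, and 3 of the beta subunits (PSMB5, PSMB6 and PSMB7) cut the protein chain. A regulatory particle sits at the end of the barrel, where a lid removes ubiquitin and a ring of ATPases unfolds the substrate and threads it into the core. Cancer cells depend on this machine, and inhibitors of its catalytic subunits are used as drugs. Its genes tend to be transcribed together, and the factor NRF1 (gene NFE2L1) raises them when proteasome activity falls short.

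Library totals ran from 1037468 to 1309241 counts, and members took 4769 to 6509 counts of each. Epithelial carcinoma and mesenchymal markers were each seen only in part, and they do not identify the line. KRT8 (824 counts), KRT18 (1124) and VIM (987) were present. Of the other epithelial markers KRT7 had 41 counts, EPCAM 13, KRT19 1 and CDH1 0. Of the other mesenchymal markers FN1 had 2 counts and CDH2 0. The alveolar markers NKX2-1, SFTPC, SFTPB and NAPSA were at 0. Fibroblast and endothelial markers, PTPRC and CD3E were also at 0, with 12 counts of CD68. Libraries are named below by the number in their column names, which the sample labels do not match. siControl library 3 stood nearest to the siDelta2-4 libraries. The mean log2 CPM (counts scaled to library size) of the tested members deviated from its 6-library mean by -0.10, -0.12 and 0.02 in siControl libraries 1, 2 and 3, and by 0.08, 0.05 and 0.06 in siDelta2-4. The table itself was not symmetrical between the groups. None of its models had 0 counts in siDelta2-4, while 4526 had 0 counts in siControl, 23 of them models of members. All 6398 models outside the annotation had 5 counts or more in every siDelta2-4 library, but only 5173 did in every siControl library. For models of members these numbers were 30 and 16. A model at 0 in every siControl library could thus be in the table, while none at 0 in every siDelta2-4 library was. For models outside the annotation, those low in siDelta2-4 were missing as well. Annotated models could be low in either group.

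Core genes were far more abundant than regulatory genes. The median level was 205 CPM for core genes and 36.1 CPM for regulatory genes. Divided by the length of the transcript model, it was 172 CPM per kb for core genes and 17.9 CPM per kb for regulatory genes. Model length need not be the length of the reads, so the order of genes below and the size of the gap between the classes depend on this division. The gap was wider with the division than without it. PSMA7 (483 CPM per kb), PSMA2 (459), PSMB5 (387), PSMB6 (373) and PSMB1 (324) were the highest of the 44 genes. On this scale the first 2, alpha ring subunits, differed by less than the range of either across libraries. Without the division PSMA2 (664 CPM) stood above PSMA7 (461 CPM). Among regulatory genes PSME2, a subunit of the interferon-inducible activator, led at 142 CPM per kb, followed by the lid subunit PSMD8 at 100.3. Without the division PSMD8 (152 CPM) led, ahead of PSME2 (113 CPM). At the other end, PSMD1 and PSMD2, the large scaffold proteins of the base, had 4 and 20 counts over all libraries, although every regulatory particle contains them. Transcripts of PSMD1 and PSMD2 are long, with model lengths of 3027 and 2913 bases, and the part of length in these low counts was not tested.

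**Figure D1:**
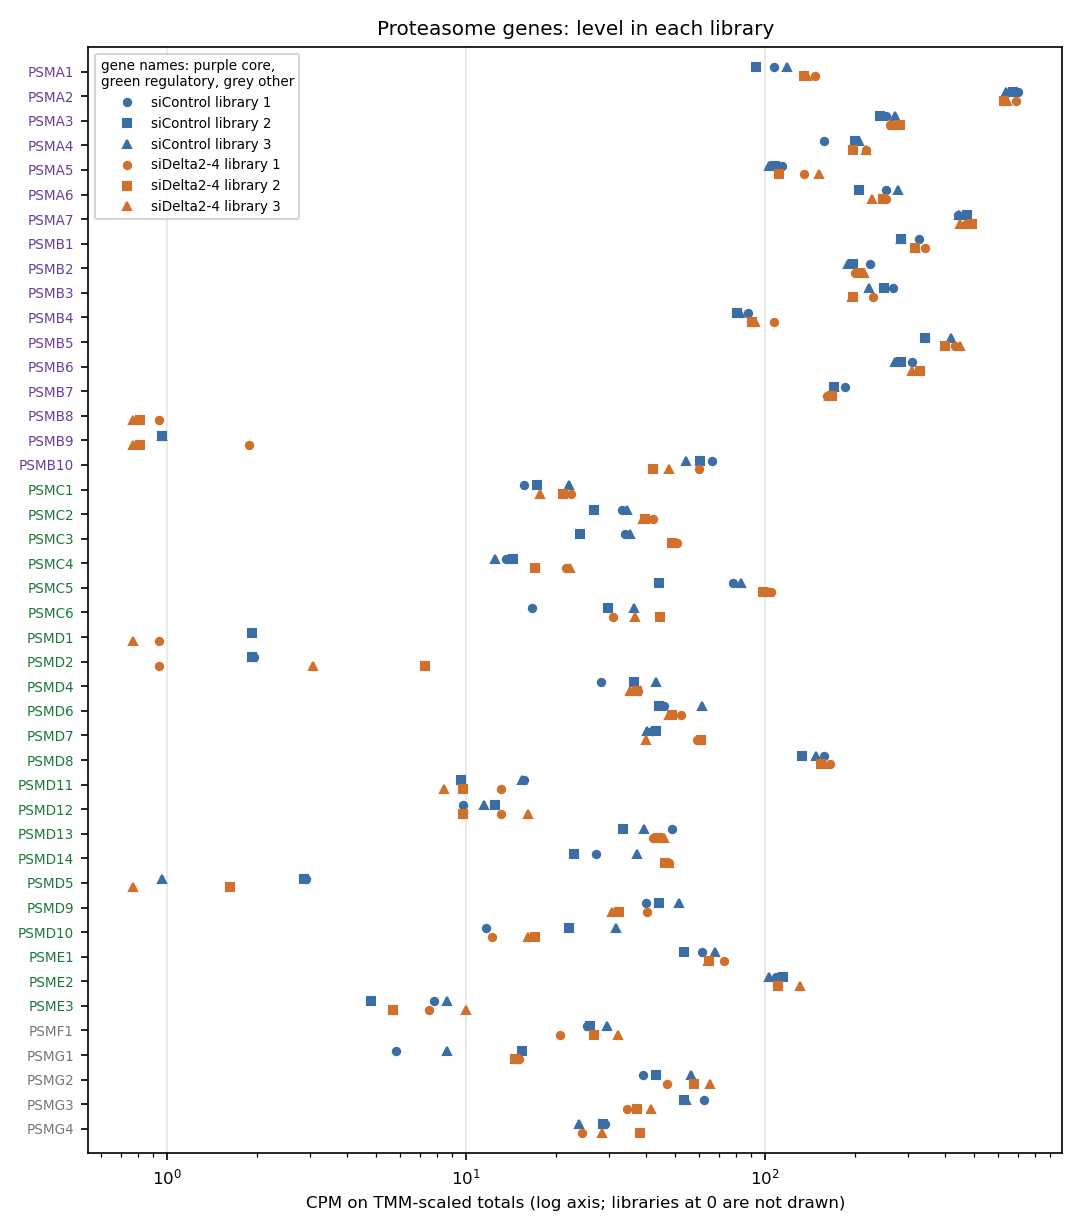
Level of each of the 44 proteasome genes in each library, as CPM on TMM-scaled totals (log axis), with siControl in blue and siDelta2-4 in orange and a marker shape for each library number. Core genes (purple names) lie mostly above 80 CPM, while PSMB8, PSMB9, PSMD1, PSMD2 and PSMD5 lie near or below the level of a few counts.

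After siDelta2-4, 4 proteasome genes rose and 1 fell. The subunits that rose were PSMA1 of the alpha ring, PSMC3 and PSMC5 of the ATPase ring and PSMD14, the lid enzyme that removes ubiquitin. The gene that fell was PSMG3, a chaperone of core assembly. Calls were made with edgeR's quasi-likelihood test over all genes, where the adjusted p had to be below 0.1. These 5 were 13.2% of the 38 members that passed the filter on low counts, against a background of 13.0% of the 3888 genes tested. Called higher were 4 of 38 members (background 7.00%), and called lower 1 of 38 (background 5.97%). At this threshold the share of called members lay near that of genes at large. At adjusted p under 0.05 the same 5 members were called, again 13.2%, while the background was 7.82%. Before adjustment, 10 members had p under 0.05 (26.3%, background 23.1%), 7 higher and 3 lower. The groups did not overlap in CPM for 8 members that were higher (PSMA1, PSMB4, PSMB6, PSMC2, PSMC3, PSMC4, PSMC5 and PSMD14; background 14.1%) and 2 that were lower (PSMB7 and PSMG3; background 11.9%).

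The direction was less even than the calls. Folds are given below on the log2 scale, siDelta2-4 over siControl. A log2 fold change above 0 was seen in 27 of 38 members (71.1%), compared with 53.9% of all genes tested, and the median was 0.13 compared with 0.03. Core genes had a median of 0.08 with 10 of 15 above 0, and regulatory genes a median of 0.14 with 14 of 18 above 0. A single standard error was typically larger than these medians, at 0.11 for core and 0.20 for regulatory genes. With a trend on transcript length removed from each library, the median of the members was 0.05 and 21 of 38 were above 0. With library totals as the only scaling it was 0.20, where the median of all genes also moved, to 0.09.

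**Figure D2:**
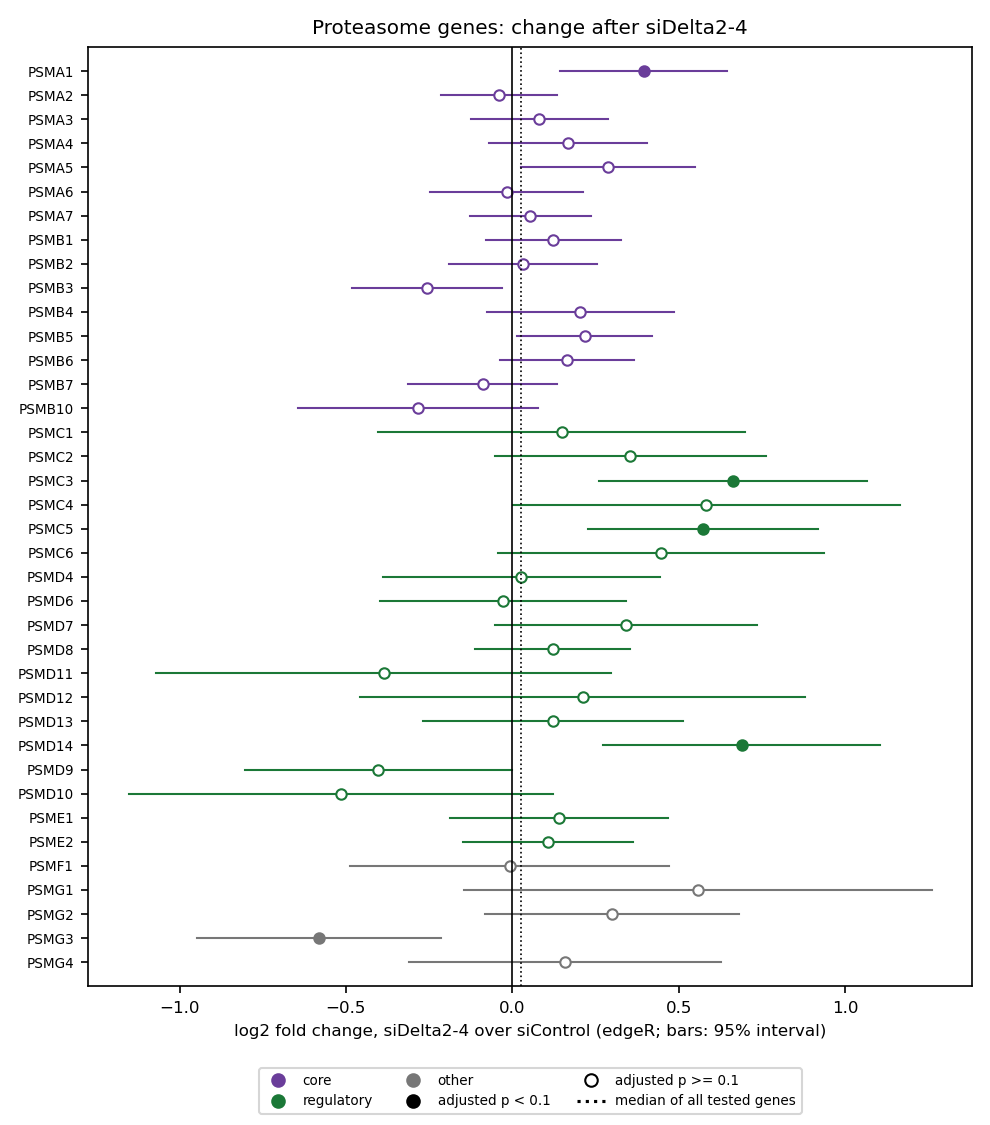
Log2 fold change (siDelta2-4 over siControl) of the 38 tested proteasome genes with 95% intervals from edgeR, in order of their place in the complex, with filled points for adjusted p under 0.1. The 6 ATPase genes PSMC1 to PSMC6 all lie to the right of 0, from 0.15 to 0.66. Of the 38 genes 11 lie to the left, among them PSMG3, PSMD10, PSMD9, PSMD11, PSMB10 and PSMB3. The other core assembly chaperones, PSMG1, PSMG2 and PSMG4, lie to the right.

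Alpha ring genes, which shape the gate of the core, had folds from -0.04 to 0.39. Of the 7, 1 was called (14.3%, background 13.0%), near the share of genes at large. PSMA1 was measured at 107, 93.0 and 119 CPM in siControl libraries 1, 2 and 3, and at 147, 135 and 138 CPM in siDelta2-4. Every siDelta2-4 library lay above every siControl library, and siControl library 3 came nearest. PSMA1 rose from 106 ± 12.9 to 140.0 ± 6.28 CPM (SD, n = 3 each), or by 0.39 ± 0.12 in log2 units (SE; edgeR adjusted p = 0.0440). The gene lies on chromosome 11 (14504874 to 14643635, minus strand, GRCh38), and 83.0% of its counts were on the annotated transcript PSMA1-201. The call was lost in DESeq2 (adjusted p = 0.134), with the length trend removed (0.26, adjusted p = 0.163), with no filter on low counts (adjusted p = 0.119) and on annotated models alone (0.30, adjusted p = 0.132), and with the same row rule in both groups (0.33, adjusted p = 0.109). It also depended on single libraries, with an adjusted p of 0.126 and 0.265 without siControl library 1 or 2 and of 0.157, 0.112 and 0.124 without siDelta2-4 library 1, 2 or 3.

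PSMA2, the member with the most counts, showed a difference that included 0. Its levels were 700.0, 676 and 642 CPM in siControl and 689, 631 and 645 CPM in siDelta2-4, with overlapping groups and a log2 fold change of -0.04 (95% interval -0.21 to 0.13). A processed pseudogene on the opposite strand, ENSG00000234983, overlaps PSMA2 over 1344 bases and held 4262 counts beside the 4445 of PSMA2, with a log2 fold change of -0.03. Whether the counting used strand is not given in the sources used here, so reads of these genes cannot be told apart with certainty. PSMA5 had the second largest change of the ring, 0.29 ± 0.13 (SE), with an unadjusted p of 0.0331 and an edgeR adjusted p of 0.167 (95% interval 0.02 to 0.55). With library totals as the only scaling PSMA5 was called (0.35, adjusted p = 0.0878). PSMA3, PSMA4, PSMA6 and PSMA7 lay between -0.02 and 0.17, none of them called.

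None of the beta subunits was called by edgeR with TMM scaling, all models and all libraries. PSMB1, a structural subunit with the most counts of its class, was at 327, 285 and 285 CPM in siControl and 342, 317 and 318 CPM in siDelta2-4. Its siControl library 1 lay inside the siDelta2-4 range, and the fold was 0.12 ± 0.10 (SE). PSMB3 pointed the other way at -0.26 ± 0.11 (SE; unadjusted p = 0.0264, edgeR adjusted p = 0.147), and was called on annotated models alone (-0.31, adjusted p = 0.0774). PSMB4 had no overlap between groups, with 80.6 to 87.7 CPM in siControl and 90.2 to 107 CPM in siDelta2-4, at a fold of 0.20 ± 0.14 (SE; edgeR adjusted p = 0.388). PSMB2 was at 0.03.

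The constitutive catalytic subunits had folds of either sign. PSMB5, which carries the chymotrypsin-like activity and is the main target of proteasome inhibitors, measured 342, 341 and 418 CPM in siControl and 432, 401 and 449 CPM in siDelta2-4. Here siControl library 3 alone exceeded a siDelta2-4 library, and the difference was 0.22 ± 0.10 in log2 units (SE; edgeR adjusted p = 0.177), which was called with library totals alone (0.28, adjusted p = 0.0803). PSMB6, with caspase-like activity, was at 309, 285 and 272 CPM and then 331, 329 and 311 CPM, which did not overlap, for a fold of 0.16 ± 0.10 (SE; edgeR adjusted p = 0.326). PSMB7, with trypsin-like activity, was at 185, 169.7 and 169.5 CPM in siControl and 161, 167 and 164 CPM in siDelta2-4. It was slightly lower in all siDelta2-4 libraries, by -0.09 ± 0.11 (SE; edgeR adjusted p = 0.671).

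Their inducible counterparts replace them in the immunoproteasome, a form that is raised by interferon and trims peptides for display to T cells. PSMB8 (in place of PSMB5) had 0 counts in each siControl library, where a count of 0 allows up to 3 counts, and 1 count in each siDelta2-4 library. PSMB9 (in place of PSMB6) was counted 0, 1 and 1 times in siControl libraries and 2, 1 and 1 times in the others. Both were at the floor in both groups, and PSMB8 could have entered the table only through siDelta2-4, so these values give no comparison. PSMB10 (in place of PSMB7) was plainly present. It measured 66.3, 60.4 and 54.6 CPM in siControl and 59.9, 42.3 and 47.6 CPM in siDelta2-4, overlapping, with a fold of -0.28 ± 0.18 (SE; edgeR adjusted p = 0.345). The ratio of PSMB7 to PSMB10 counts was 2.79, 2.81 and 3.11 in siControl and 2.69, 3.96 and 3.45 in siDelta2-4. Only 61 of the 366 PSMB10 counts were on the 8-exon transcript PSMB10-201 (977 bases), and 250 were on PSMB10-203, a 4-exon annotated model of 591 bases.

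In the ATPase ring all 6 genes had a fold above 0, with a median of 0.51, 4 of them (PSMC2, PSMC3, PSMC4 and PSMC5) were higher without overlap between the groups (background 14.1%), and 2 were called higher (background 7.00%). PSMC3 was at 34.1, 24.0 and 35.4 CPM in siControl and at 50.6, 48.8 and 49.1 CPM in siDelta2-4. PSMC5, the most counted ATPase, was at 78.0, 44.1 and 83.3 CPM in siControl and at 105, 98.3 and 103 CPM in siDelta2-4. In both genes siControl library 2 was the lowest and the siDelta2-4 libraries lay close together.

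PSMC3 rose from 31.2 ± 6.27 to 49.5 ± 0.959 CPM (SD, n = 3 each), or by 0.66 ± 0.20 in log2 units (SE; edgeR adjusted p = 0.0348). PSMC5 rose from 68.5 ± 21.3 to 102.0 ± 3.35 CPM, by 0.57 ± 0.17 (SE; edgeR adjusted p = 0.0338). Both calls rested on siControl library 2. Without it PSMC3 was at 0.50 (adjusted p = 0.216) and PSMC5 at 0.33 (adjusted p = 0.273). Without siDelta2-4 library 2 the adjusted p was 0.112 for both, and without siDelta2-4 library 1 it was 0.111 for PSMC5. DESeq2 also called PSMC5 (adjusted p = 0.0726) and gave PSMC3 no adjusted p, and with the length trend removed PSMC5 was no longer called (0.43, adjusted p = 0.107). The SD of 0.959 CPM in siDelta2-4 was below the 6.42 CPM that counting alone gives at this depth for PSMC3. In siDelta2-4 the same held for PSMC5 (3.35 against 9.22 CPM), PSMD14 (0.785 against 6.27), PSMA1 (6.28 against 10.8) and PSMG3 (3.42 against 5.60). Such small SDs do not measure how well the libraries repeat.

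The other ATPases had folds of 0.15 (PSMC1), 0.35 (PSMC2), 0.58 (PSMC4) and 0.45 (PSMC6), with standard errors of 0.20 to 0.28 and none called. PSMC4 had the fewest counts of them, 115 in all, at 12.5 to 14.4 CPM in siControl and 17.1 to 22.3 CPM in siDelta2-4. PSMC1 had 130 counts, fewer than the 318 of its retrocopy PSMC1P1, whose own fold was 0.53 (edgeR adjusted p = 0.131), so reads may be split between the copies. PSMC2 shares its locus with SLC26A5 on the opposite strand, which held 187 counts beside 243.

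Of the base subunits without ATPase activity, only PSMD4, a ubiquitin receptor, was tested. It was at 28.3, 36.4 and 43.1 CPM in siControl and 37.5, 37.4 and 35.3 CPM in siDelta2-4, within the siControl range, at 0.03 ± 0.20 (SE).

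The lid had 1 called gene of 7 (14.3%, background 13.0%), near the share of genes at large. PSMD14, the metalloprotease that cuts ubiquitin chains from the substrate, was at 27.3, 23.0 and 37.4 CPM in siControl and 47.8, 46.3 and 47.6 CPM in siDelta2-4. The groups did not overlap, with siControl library 3 again the nearest. PSMD14 rose from 29.2 ± 7.36 to 47.2 ± 0.785 CPM (SD, n = 3 each), by 0.69 ± 0.20 (SE; edgeR adjusted p = 0.0348), the largest fold among the tested members. Its call was lost on annotated models alone (0.54, adjusted p = 0.149), with the same row rule in both groups (0.57, adjusted p = 0.147) without siControl library 2 (0.54, adjusted p = 0.203) or library 1 (0.62, adjusted p = 0.104), and without siDelta2-4 library 2 (0.70, adjusted p = 0.112). MXRA7P1 on the opposite strand held 155 counts beside its 261. PSMD8, the most counted lid gene, was at 157, 133 and 148 CPM and then 165, 154 and 157 CPM, with a fold of 0.12 ± 0.11 (SE) and overlapping groups. PSMD6, PSMD7, PSMD11, PSMD12 and PSMD13 lay between -0.39 and 0.34, none of them called. PSMD7 overlaps a long non-coding RNA gene, ENSG00000259972, on the opposite strand with 301 counts beside 320.

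PSMD9 and PSMD10, counted as regulatory by name, are chaperones that help the ATPase ring to assemble and then leave it. Their folds had the opposite sign to those of the ring, though neither was called by edgeR with TMM scaling and all models. PSMD9 was at 40.0, 44.1 and 51.7 CPM in siControl and 40.3, 32.5 and 30.7 CPM in siDelta2-4, overlapping at 1 library, with a fold of -0.40 ± 0.20 (SE; edgeR adjusted p = 0.212). It was called with the length trend removed (-0.58, adjusted p = 0.0563). PSMD10 was at -0.52 ± 0.31 (SE; edgeR adjusted p = 0.331), and siControl values from 11.7 to 31.6 CPM enclosed the siDelta2-4 values. Without siControl library 1, its lowest siControl value, PSMD10 was called (-0.83, adjusted p = 0.0992). PSMD5, the remaining chaperone of the base, had 10 counts and was not tested.

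Activators open the gate of the core without ATP. PSME2 was at 109, 115 and 103 CPM in siControl and 110.5, 111 and 131 CPM in siDelta2-4, overlapping, with a fold of 0.11 ± 0.12 (SE). Its partner PSME1 was at 0.14 ± 0.16 (SE). PSME3, the nuclear activator, had 50 counts and was not tested. PSMF1, an inhibitor of the core in vitro, was at 25.3, 25.9 and 29.7 CPM and then 20.6, 26.8 and 32.2 CPM, with the siControl values inside the siDelta2-4 range and a fold of -0.01 ± 0.23 (SE).

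PSMG1 to PSMG4 are chaperones that build the alpha ring in pairs, PSMG1 with PSMG2 and PSMG3 with PSMG4. PSMG3 was at 62.4, 53.7 and 54.6 CPM in siControl and 34.6, 37.4 and 41.4 CPM in siDelta2-4, so all siControl libraries were above all siDelta2-4 libraries. It fell from 56.9 ± 4.78 to 37.8 ± 3.42 CPM (SD, n = 3 each), by -0.58 ± 0.18 in log2 units (SE; edgeR adjusted p = 0.0434). DESeq2 called it as well (adjusted p = 0.0945), and the change was larger with the length trend removed (-0.72, adjusted p = 0.0145). The call was lost without siControl library 1 (-0.53, adjusted p = 0.140) and without siDelta2-4 library 1 (-0.53, adjusted p = 0.130) or library 2 (-0.57, adjusted p = 0.133). Its partner PSMG4 was at 0.16 ± 0.23 (SE), and the difference between the partners was not tested. PSMG2, with the most counts of the 4, was at 39.0, 43.2 and 56.5 CPM in siControl and 46.8, 57.7 and 65.2 CPM in siDelta2-4, overlapping at 0.30 ± 0.19 (SE; edgeR adjusted p = 0.348). PSMG1 was at 0.56 ± 0.34 (SE; edgeR adjusted p = 0.340).

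**Figure D3:**
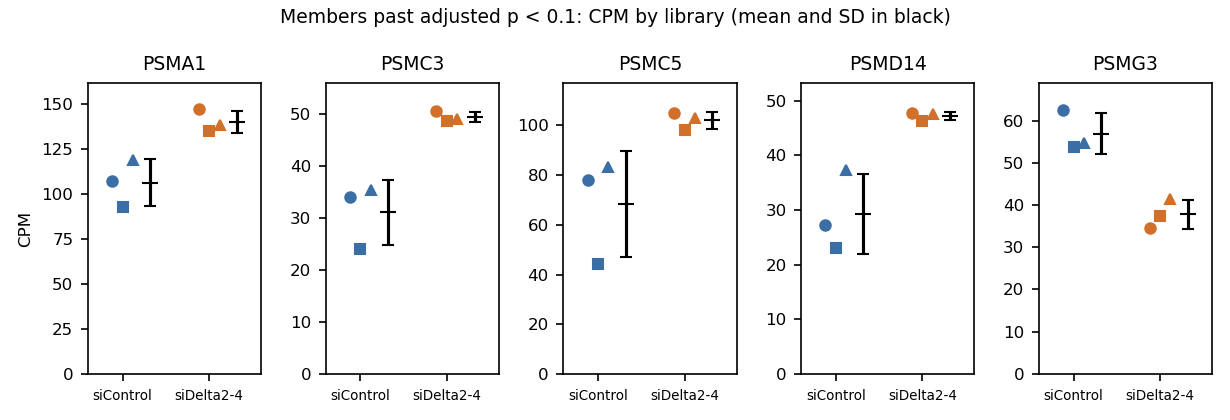
CPM in each library for the 5 called proteasome genes, with siControl in blue, siDelta2-4 in orange, a marker shape for each library number and the mean and SD in black. The groups do not overlap in any of the 5 panels, and siControl library 2 (square) is the lowest point of PSMA1, PSMC3, PSMC5 and PSMD14.

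Removing single libraries changed how many members were called, and the share of all genes called moved with it. Without siDelta2-4 library 2 no member was called (the smallest adjusted p of the 5 genes was 0.112), against 4.85% of all genes, and without siControl library 2 only PSMG3 was (2.63% of members, 5.52% of all genes). Without siControl library 3, the library nearest to siDelta2-4, 9 members were called (23.7%, against 25.4% of all genes), adding PSMB3, PSMB5, PSMC6 and PSMG2. Without siControl library 1 the called members were PSMC3, PSMC5 and PSMD10 (7.89%, against 7.27% of all genes), and without siDelta2-4 library 1 they were PSMC3 and PSMD14 (5.26%, against 7.54%). Without siDelta2-4 library 3 the 5 were called except PSMA1 (10.5%, against 6.99%). The direction of the 5 genes was kept in each of these fits.

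Regulatory sequence near the starts of the genes that rose is shown because proteasome genes share promoter elements. RefSeq promoters (GRCh38.p14, 250 bases before to 50 after a start) were matched for 38 of the 44 genes, 47 promoters in all. They were searched on both strands for TGACNNNGC and TGAGNNNGC, cores of the antioxidant response element that NRF1 and NRF2 bind, and for CCAAT. TGACNNNGC was in 27.7% of member promoters and 13.3% of all 35116, TGAGNNNGC in 27.7% and 18.3%, either of them in 44.7% and 29.1%, and CCAAT in 38.3% and 34.6%. The windows below are 29 bases each, printed on the strand on which the motif reads, with the motif in capitals, and a match is a string of letters and not a measured binding site. PSMC3 had CCAAT at -114 from its start (chr11:47426537-47426565, minus strand). PSMC5 had CCAAT at -10 of its first RefSeq start (chr17:63827409-63827437, plus strand) and TGACNNNGC at -57 of its other start (chr17:63827654-63827682, minus strand). PSMD14 had TGAGNNNGC at -146 (chr2:161308269-161308297, minus strand) and CCAAT at -48 (chr2:161308365-161308393, plus strand), with another CCAAT on the opposite strand at -45 that overlaps it. No match lay in the PSMA1 window, and PSMG3 was not matched.
PSMC3 CCAAT: cgcgcgtgtcggCCAATagcggccccacc
PSMC5 CCAAT: ggtcttcaggtcCCAATcctccgcttccg
PSMC5 antioxidant element: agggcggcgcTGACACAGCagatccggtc
PSMD14 antioxidant element: ggcaggactgTGAGGCGGCacttagcgcc
PSMD14 CCAAT: tctccgtcgtctCCAATtggccgtcgggg

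Summed over the 44 genes, the proteasome took a larger share of the siDelta2-4 libraries. The share was 0.445%, 0.443% and 0.485% of all counts in siControl and 0.512%, 0.514% and 0.497% in siDelta2-4. The groups did not overlap, but siControl library 3 and siDelta2-4 library 3 were close. The mean went from 0.457% ± 0.0237 to 0.508% ± 0.00909 (SD, n = 3 each), and no test was made on a sum over members. A share is scaled by library totals alone. With that scaling the median log2 fold change was 0.09 over all genes tested and 0.20 over members, so genes at large also shifted upward. Of the classes, the ATPase ring had the largest ratio of means, 1.48, from 0.0185% ± 0.00377 to 0.0273% ± 0.000699. Constitutive catalytic subunits went from 0.0803% ± 0.00530 to 0.0925% ± 0.000697 and the lid from 0.0322% ± 0.00326 to 0.0380% ± 0.00167, both without overlap. Structural beta subunits and core assembly chaperones overlapped between the groups.

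Core counts were set against regulatory counts, as both are needed in the complete machine. The ratio of summed core to summed regulatory counts was 4.79, 4.97 and 4.24 in siControl and 4.26, 4.18 and 4.21 in siDelta2-4. siControl library 3 lay inside the siDelta2-4 range, so the groups overlapped. On the log2 scale the ratio was lower by 0.14 in siDelta2-4, against SDs of 0.12 and 0.01. Without siControl library 3 the difference was -0.21 and without siControl library 2 it was -0.10. The ratio of core to ATPase ring counts did not overlap, at 20.1, 23.5 and 16.8 in siControl and 14.8, 14.3 and 14.5 in siDelta2-4. This ratio was not planned, and it uses the class with the largest rise in share. It was not recomputed with single libraries left out. Within the core, alpha to beta counts stood at 1.18 in both groups. With PSMA2 left out, because of the pseudogene opposite it, the core to regulatory ratio went from 3.83 ± 0.278 to 3.51 ± 0.0192.

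**Figure D4:**
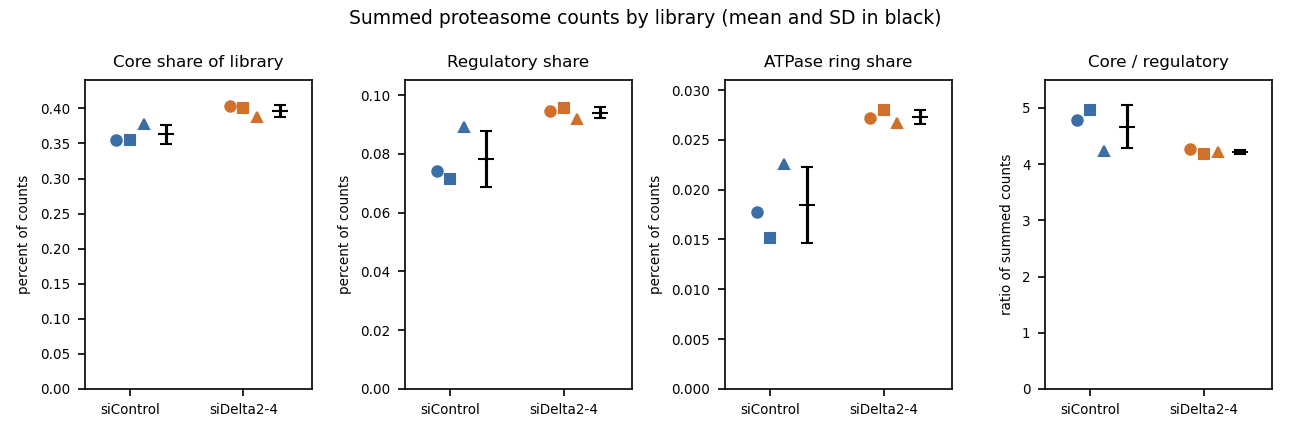
Share of each library's counts on core genes, regulatory genes and the ATPase ring (percent), and the ratio of core to regulatory counts, with siControl in blue, siDelta2-4 in orange, a marker shape for each library number and the mean and SD in black. siControl library 3 (triangle) is the siControl point nearest to siDelta2-4 in every panel and lies within the siDelta2-4 range for the ratio.

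Proteasome reads matched annotated transcripts far more often than reads at large. Annotated models took 93.7% of member counts, compared with 45.3% of all counts in the table. Incomplete splice matches, which are truncated forms of annotated transcripts, took 2.41% of member counts and 34.2% of all counts. New combinations of known splice sites took 2.45%, and models with a new splice site 1.44%. PSMC6 and PSMD14 had the lowest annotated shares, 64.0% and 67.8%. In each the rest was 1 model of the same exon number as the main transcript and nearly the same length, 1594 beside 1590 bases for PSMC6 and 1569 beside 1567 bases for PSMD14.

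**Figure D5:**
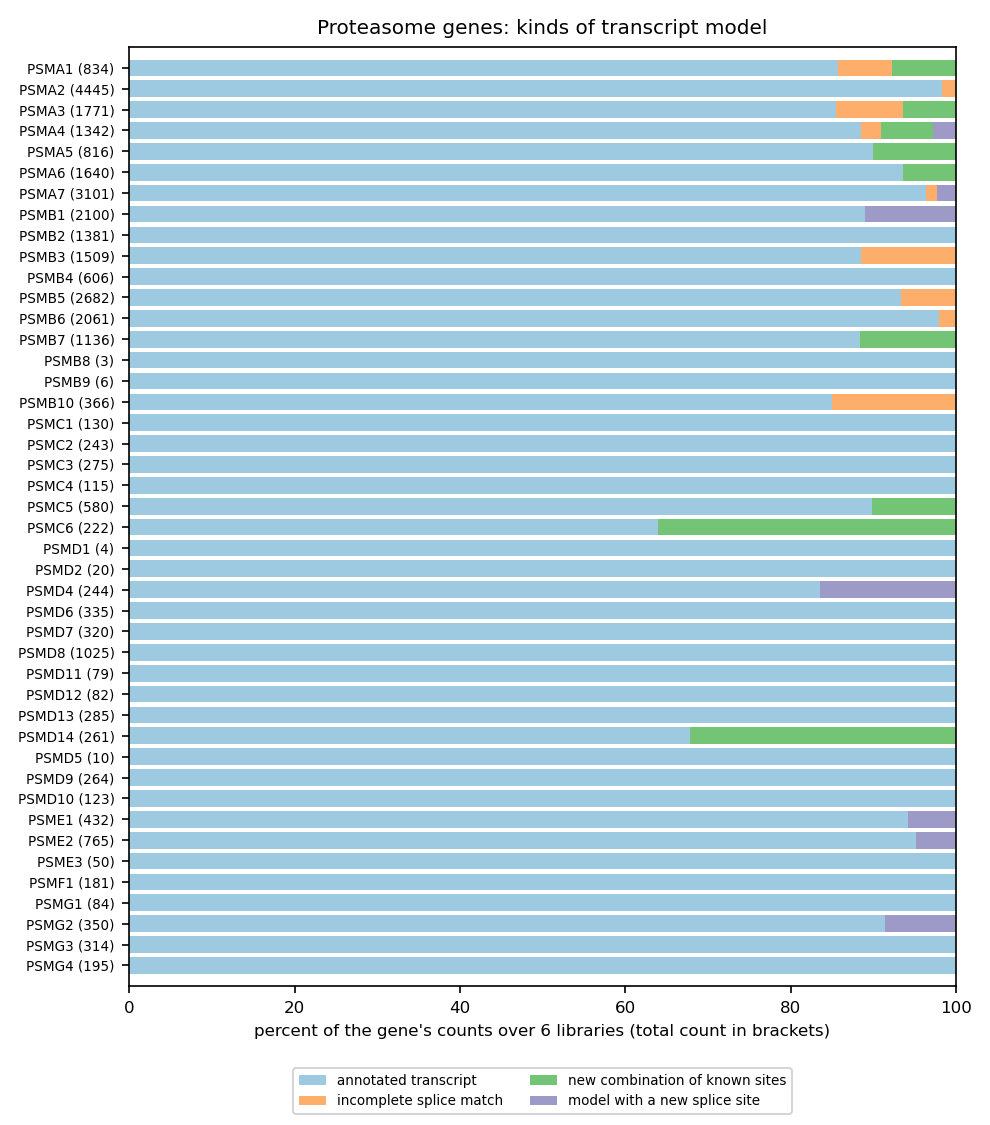
Percent of each proteasome gene's counts on annotated transcripts, incomplete splice matches, new combinations of known splice sites and models with a new splice site, over the 6 libraries, with the total count in brackets. Annotated transcripts fill most bars, and PSMC6 and PSMD14 show the largest share of a new combination.

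At the level of single transcript models, 3 of the 56 member models tested were called (edgeR adjusted p under 0.1, background 6.91% of models). They were the main annotated transcript of PSMC3 (0.68 ± 0.20, SE; adjusted p = 0.0449), PSMC5-201 (0.60 ± 0.18, SE; adjusted p = 0.0528) and PSMG3-202 (-0.71 ± 0.21, SE; adjusted p = 0.0493). Each is the most counted model of a called gene. PSMD14-201 and its unannotated companion both had folds above 0, 0.60 and 0.96, with adjusted p of 0.177 and 0.138. The companion had 10, 4 and 12 counts in siControl, so it would not have met the 5-count rule in every siControl library. Its fold therefore adds no support to that of PSMD14-201. The count of called models was 0 without any 1 of 5 libraries, siControl 1 and 2 and siDelta2-4 1, 2 and 3, and 11 without siControl library 3. The share of all models called was not recorded for these fits. Among genes, leaving out siControl library 3 took the share called from 13.0% to 25.4% of all tested, so the 11 cannot be read as particular to members. Transcript usage within a gene, tested for 15 members with diffSpliceDGE, gave 0 calls (background 0.618%), and 0 members had an unadjusted p under 0.05, the smallest being 0.200 for PSMG3.

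Of 29 other genes that work with the proteasome, 20 were in the table and 11 were tested. None was called by edgeR, and 1 had an unadjusted p under 0.05. That gene was TXNL1, a thioredoxin bound to the regulatory particle, which had a fold of 0.55 ± 0.21 (SE; adjusted p = 0.113) and no overlap between the groups. The median fold of the 11 was 0.01. SEM1, the smallest lid subunit, was at -0.18 ± 0.10 (SE). POMP, the core maturation factor, was at 0.00 ± 0.10 (SE). UBB, a polyubiquitin gene, was at 0.11 ± 0.08 (SE). NFE2L1 and NFE2L2, which encode NRF1 and NRF2, had 1 and 4 counts and could not be compared. NFE2L3 had 793 counts, mostly on unannotated models of up to 12 exons, at a locus that overlaps HNRNPA2B1 on the opposite strand, and its fold of 0.13 is uncertain for that reason.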

How the data were processed

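The deposited values were raw long-read counts per transcript model. The authors prepared PCR-cDNA libraries on 1 MinION flow cell, aligned reads to GRCh38.p14 with minimap2 2.14 and SAMtools 1.13 (submitters' processing notes), corrected them with TranscriptClean, annotated them with TALON against Gencode 44 and filtered out models outside the annotation unless 3 samples had 5 reads or more. The counts were not normalised.

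Counts were summed over the transcript models of each gene, separately in each of the 6 libraries. Of the count columns, 0 lacked a group. Genes were tested with edgeR 4.0.16 (R 4.3.3, limma 3.58.1): filterByExpr, TMM, quasi-likelihood fit of the 2 groups without covariate, two-sided, Benjamini-Hochberg adjustment over all genes tested, called at adjusted p under 0.1. CPM used TMM-scaled totals of the filtered genes. Models were tested alike and usage with diffSpliceDGE. The fit was tested on simulated data. Intervals are 95%. Groups came from the labels and columns were matched by the siRNA in their names. The study calls the replicates biological. Nothing in the labels ties libraries to separate cultures, so p-values measure the spread between these libraries. In such relative values, less of a gene and more of others cannot be told apart.

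Per-library values were given for every called member, the most counted member of each class and the catalytic subunits with their inducible counterparts, and the others by range. For PSMB4, PSMC4, PSMD9 and PSMD10 values were added after they were seen. The members, classes, pathway list, markers and motifs were chosen with earlier results of these data known. Alternatives were DESeq2 1.42.0, its size factors, library totals, no filter, 10 counts in every library, adjusted p under 0.05, a loess length trend removed (span 0.4), annotated models alone, the same row rule in both groups, a replicate block and each library left out.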

Additional observations from a re-analysis of the deposited data

How the results depend on the processing

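The 5 called genes kept their direction in every alternative fit that gave a value. DESeq2 called 2 members (PSMC3 and PSMD14 had no adjusted p there) and 254 of all genes, and the same row rule in both groups 3 members and 478 genes. Leaving out 1 library gave 0 to 9 called members and 0 to 11 called models, where the called genes of the whole table ran from 194 to 1041, lowest and highest in the same fits as the members. Other settings gave 4 to 7 members and 2 to 4 models, and usage gave 0 calls in each. The median log2 fold change of members was 0.2006 with library totals alone and 0.0478 with the length trend removed, and between 0.093 and 0.142 otherwise. The difference in the share of counts on members was 0.0502 percentage points, and 0.0821 on annotated models, where the share is of annotated counts. The difference in the core to regulatory log2 ratio, siDelta2-4 minus siControl, ran from -0.21 to -0.10.

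A replicate block on the column number left 5 members and 3 models called. The numbers did not pair the libraries: deviations of same-numbered libraries correlated at 0.039, -0.136 and -0.084, so the libraries share only a number. Over all genes the block took the calls from 504 to 299.

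Depth limits the rarer members: with 79 to 130 counts, PSMD11, PSMD12, PSMG1, PSMC4, PSMD10 and PSMC1 had standard errors of 0.27 to 0.34, and none was called with all libraries, at folds of up to 0.58 in size. In simulated data for this comparison, run on 3888 genes, 47% of changes of 1.5-fold were called. The changed genes were drawn from all genes tested, so recovery at the counts of these rarer members was not measured.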
